A study of Gallus gallus with 32 samples.

Results

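The genes described here are 7 parts of the hormonal axis that runs from the brain through the pituitary to the gonad: GnRH-I and NPVF, FSHB and NR5A1, the activin subunit genes INHBA and INHBB, and FST. They were chosen by name, with earlier results of these data known, and all 7 were found among the 24881 genes of the count table. The RNA came from whole hypothalamus and from pituitary of 16 Ross 308 cockerels, a commercial broiler hybrid grown for meat, and each bird gave 1 library per tissue, or 32 libraries. There were 4 birds in each of 4 groups, namely LGR (low growth rate) at 6 weeks, HGR (high growth rate) at 6 weeks, LGR at 3 weeks and HGR at 3 weeks. The labels call the growth groups light and heavy and place the slaughter on day 42 and day 22, while the sample titles carry other day numbers and the methods of the study place the older slaughter a few days later. All birds were males of the same strain, and birds of the same age had the same feed. Starter, grower and finisher diets followed each other with age, so diet and age cannot be told apart. The sources name no treatment other than feed withdrawal and electrical stunning before slaughter. By those methods the young birds were sorted by body weight into lighter and heavier ones and kept in separate pens, so pen and growth group cannot be told apart.

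GnRH-I is the gene of the decapeptide that hypothalamic neurons release towards the pituitary to drive the gonadotropins, and NPVF encodes the precursor of gonadotropin-inhibitory hormone, which in birds acts against that drive. In the pituitary, FSHB encodes the subunit that sets follicle-stimulating hormone apart from the other glycoprotein hormones, and NR5A1 (steroidogenic factor) is a nuclear receptor of gonadotroph cells that is also a marker of the ventromedial nucleus of the hypothalamus. INHBA and INHBB encode the beta subunits of activins and inhibins, local and gonadal proteins known for raising and lowering FSHB, and FST encodes follistatin, which binds activin and keeps it from its receptors. In cockerels of these ages the testes are still small, and the axis is known to be held at a low level until puberty.

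The deposited tables place GnRH-I (ENSGALG00000000277) on chromosome 22 from 835870 to 838873, NPVF (ENSGALG00000011022) on chromosome 2 from 31857592 to 31861159 and FSHB (ENSGALG00000012140) on chromosome 5 from 4507975 to 4511348. NR5A1 (ENSGALG00000001080) is listed on chromosome 17 from 9914203 to 9930043, and INHBA (ENSGALG00000034616) on chromosome 2 from 50747740 to 50762675. INHBB (ENSGALG00000028770) is listed on chromosome 7 from 25714824 to 25719385, and FST (ENSGALG00000014908) on chromosome Z from 16072649 to 16079246. These are whole-gene spans, the files name no genome build for them, and no other gene of the deposited tables overlapped any of the 7. INHBA and NPVF share chromosome 2 but lie far apart on it, and the other members are on a chromosome each.

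Levels are given as CPM, the counts of a gene scaled to a library of 1e+06 counts, after scaling by trimmed mean of M-values (TMM), and they were not compared between genes, since no transcript lengths were used. A gene was called where the Benjamini-Hochberg adjusted p of the edgeR quasi-likelihood test over all genes was at most 0.05 and the fold change at least 1.5. The total count was 6231478 to 18256297 in pituitary and 13845756 to 17536175 in hypothalamus libraries. The pituitary library of 3-week LGR replicate 4 stood apart: its total was the 6231478 and its TMM factor 0.685, against 0.969 to 1.08 in the other pituitary libraries, so the values it moved most are also given without it. The tissues carried their markers. The summed CPM of 6 anterior pituitary genes (PRL, TSHB, CGA, TBX19, LHX3 and PITX1) was 43889 to 106459 in pituitary and 2.39 to 613 in hypothalamus libraries. The 8 genes of hypothalamic neurons summed to 12.6 to 69.3 CPM in pituitary and 415 to 863 CPM in hypothalamus. The 106459 and the 12.6 CPM were both the shallow library, and without it the pituitary ranges were 43889 to 75542 and 31.7 to 69.3 CPM. In the hypothalamus the anterior pituitary sum was 116 to 613 CPM in LGR and 12.4 to 202 CPM in HGR birds at 3 weeks.

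**Figure D1:**
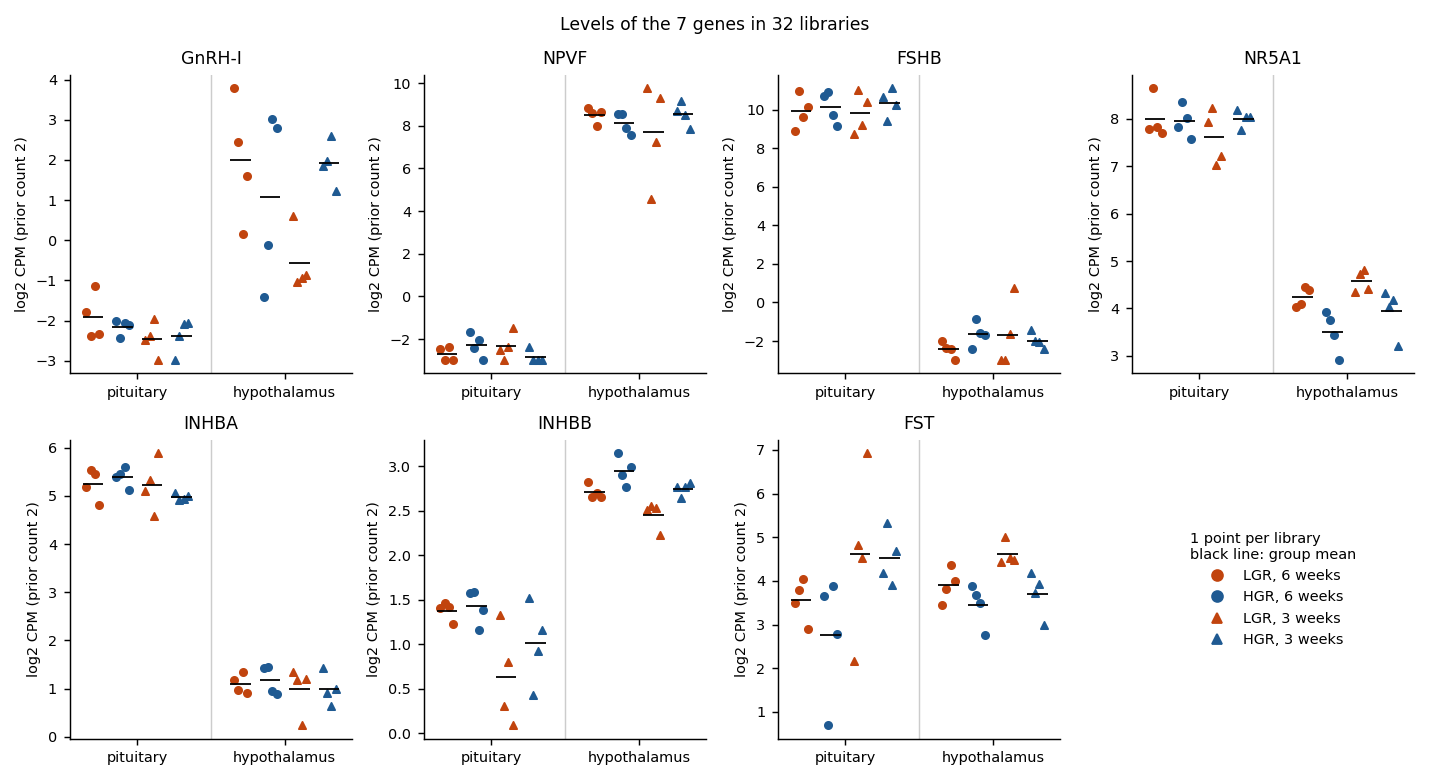
Level of each of the 7 genes on the y axis, as log2 CPM with a prior count of 2, in pituitary (left of each panel) and hypothalamus libraries (right), with 1 point per library and a black line at the mean of each group of 4. FSHB, NR5A1 and INHBA lie higher in pituitary, GnRH-I, NPVF and INHBB higher in hypothalamus, and the FST points of both tissues overlap.

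The first question was where each gene was expressed. FSHB, NR5A1 and INHBA were higher in pituitary, NPVF, GnRH-I and INHBB were lower there than in hypothalamus, and FST did not pass the test. NPVF and GnRH-I were nearly absent from the pituitary. NPVF had 12 counts in all 16 pituitary libraries together, with 0 in 7 of them, where a count of 0 allows up to 0.155 to 0.214 CPM, against 90137 counts and 23.7 to 867 CPM in hypothalamus. The pooled level was 0.033 CPM in pituitary and 389.8 CPM in hypothalamus at 3 weeks. This was an 11796-fold difference with a 95% Poisson interval of 4607 to 43294, from 4 pituitary counts. At 6 weeks the difference was 5474-fold (2778 to 12680), from 8 pituitary counts. The intervals cover counting error only, as do all intervals and limits of this kind here. GnRH-I had 26 counts in pituitary and 901 in hypothalamus, and its pooled hypothalamus level was 31.6 times that of pituitary at 3 weeks (16.7 to 69.2) and 38.2 times at 6 weeks (23.9 to 65.6). In bulk tissue such as this, fewer cells of a type and less RNA per cell cannot be told apart.

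FSHB showed the opposite distribution. It reached 423 to 2211 CPM in pituitary and at most 1.54 CPM in hypothalamus, which made 304508 counts in pituitary and 51 in hypothalamus. The pooled ratio of pituitary over hypothalamus was 4671 at 3 weeks (Poisson interval 3343 to 6745) and 8355 at 6 weeks (5218 to 14342). Of the 51 counts, 22 came from the hypothalamus of 3-week LGR replicate 4. The anterior pituitary sum was 414 CPM in that library, but it was 613 CPM in 3-week LGR replicate 2, which had 0 counts of FSHB, and the part of pituitary RNA in these counts was not tested. FSHB, GnRH-I and NPVF passed the low-count filter of the fit over 32 libraries only through the tissue where they were high and so had to differ, and their fitted values are not used as support.

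The 4 other members passed the filter in both tissues. The gene-wide background was high, since 51.6% of 16169 genes were called between the tissues at 3 weeks and 53.2% at 6 weeks, and a call of 3 of these 4 is to be read against it. INHBA was 37.8 ± 8.91 CPM in pituitary and 2.01 ± 0.436 CPM in hypothalamus (SD, n = 16 each). Its log2 fold change was 4.18 (SE 0.18) at 3 weeks and 4.25 (SE 0.18) at 6 weeks. The lowest pituitary library, at 24.0 CPM, was far above the highest hypothalamus library at 2.59 CPM. NR5A1 was 245 ± 66.6 CPM in pituitary and 17.6 ± 5.70 CPM in hypothalamus, a log2 fold change of 3.57 (SE 0.20) at 3 weeks and 4.12 (SE 0.21) at 6 weeks. The tissues did not overlap here either, with 131 CPM in the lowest pituitary and 27.8 CPM in the highest hypothalamus library. The difference of NR5A1 between tissues was larger at 6 weeks by 0.55 (SE 0.26), with an adjusted p of 0.811, so it was not called. One gene of 16169 was called for a tissue difference that changed with age (0.00618%), and 0 of these 4 members.

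The activin subunit genes were distributed in opposite ways. INHBB, unlike INHBA, was lower in pituitary than in hypothalamus, 2.13 ± 0.628 CPM and 6.51 ± 0.975 CPM (SD, n = 16 each). The log2 fold change was -1.75 (SE 0.15) at 3 weeks and -1.47 (SE 0.14) at 6 weeks, with adjusted p-values of 1.98e-11 and 3.06e-10. The highest pituitary library held 2.87 CPM and the lowest hypothalamus library 4.54 CPM, so the groups were separate. The pituitary counts of INHBB were low, from 4 to 48 per library. FST averaged 22.4 CPM in pituitary and 16.2 CPM in hypothalamus, with a coefficient of variation of 125% in pituitary and 39.9% in hypothalamus. Pituitary libraries spanned 1.49 to 121 CPM, an 80.9-fold range, against 6.69 to 31.99 CPM in hypothalamus. Without the shallow library the pituitary mean was 15.9 CPM, the coefficient of variation 63.5% and the highest value 40.1 CPM, a 26.9-fold range. At 3 weeks its log2 fold change was 0.82 (SE 0.41, adjusted p = 0.073) and at 6 weeks -0.34 (SE 0.42, adjusted p = 0.47). The 3-week value was 0.22 without the shallow pituitary library (adjusted p = 0.567). It was called under upper-quartile scaling, at 0.92 with an adjusted p of 0.0457, and without the pituitary of 3-week LGR replicate 1, at 1.03 with an adjusted p of 0.0105. Over all alternatives its adjusted p ran from 0.0105 to 0.567.

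The second question was whether LGR and HGR birds differed, and in the hypothalamus of 3-week birds GnRH-I gave the largest difference among the members. It was 1.39, 0.359, 0.396 and 0.419 CPM in the 4 LGR birds, against 3.50, 3.82, 5.93 and 2.20 CPM in the 4 HGR birds. Every LGR bird was below every HGR bird, and 3 of the 4 LGR libraries held only 6 counts each and the other 19, against 38 to 107 in HGR. By edgeR the log2 fold change was -2.60 (SE 0.47), or 6.08-fold lower in LGR, with an adjusted p of 0.317 over 14980 genes. It was therefore not called by edgeR, while DESeq2 called it, at -2.61 with an adjusted p of 0.00029, and over all alternatives the adjusted p ran from 0.00029 to 0.844. The exact permutation test gave p = 0.0286, the smallest that 4 against 4 birds allow. A tissue marker that moved with GnRH-I in the hypothalamus is not reported here. Its part in the GnRH-I differences between growth groups and ages was not tested.

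**Figure D2:**
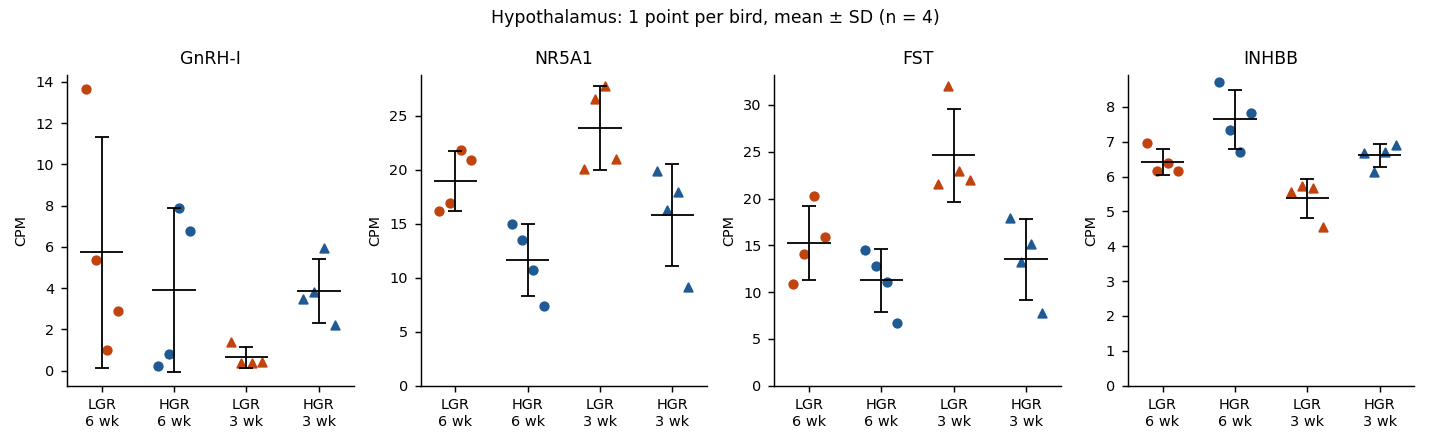
Levels of GnRH-I, NR5A1, FST and INHBB on the y axis, in CPM, in the hypothalamus of the 4 groups, with 1 point per bird and bars for mean ± SD of 4 birds. At 3 weeks LGR and HGR birds are separate for all 4 genes, and at 6 weeks for NR5A1 only.

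At 6 weeks the GnRH-I levels of the growth groups overlapped almost wholly. They were 13.7, 5.36, 0.994 and 2.91 CPM in LGR and 0.249, 0.792, 7.91 and 6.75 CPM in HGR birds. Both groups held birds near 1 CPM or below and birds above 5 CPM. The log2 fold change was 0.55 (SE 0.92, adjusted p = 0.803), and it became -0.35 without LGR replicate 1. The change of the growth group difference between ages, 6 weeks minus 3 weeks, was 3.15 (SE 1.23) on the log2 scale with an adjusted p of 0.858, so the ages were not shown to differ. In that test 1 of 15414 genes was called (0.00649%), and 0 of the 6 members.

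In the 3-week hypothalamus FST and NR5A1 had higher levels in every LGR than in any HGR bird, without passing the test over all genes. FST was 21.5, 31.99, 23.0 and 22.0 CPM in LGR and 17.9, 13.2, 15.1 and 7.77 CPM in HGR birds. NR5A1 was 20.1, 26.5, 27.8 and 21.0 CPM in LGR and 19.8, 16.3, 17.96 and 9.11 CPM in HGR birds. For both genes the lowest LGR bird was above the highest HGR bird, by a narrow margin for NR5A1. By edgeR FST gave a log2 fold change of 0.87 (SE 0.23, adjusted p = 0.773) and NR5A1 one of 0.59 (SE 0.22, adjusted p = 0.826), and neither was called. The exact permutation p was 0.0286 for each, again the smallest possible.

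For INHBB the order of the groups was the opposite. It was 5.55, 5.74, 5.68 and 4.54 CPM in 3-week LGR and 6.68, 6.14, 6.71 and 6.90 CPM in 3-week HGR hypothalamus. The groups did not overlap, but the difference was small, with a log2 fold change of -0.30 (SE 0.16, adjusted p = 0.864; exact permutation p = 0.0286). Thus 4 of the 6 members tested, namely GnRH-I, FST, NR5A1 and INHBB, had groups that did not overlap, where 3.14% of all 14980 genes did so. The members were chosen with earlier results of these data known, so the count is no test against that share. The paper itself lists FST and NR5A1 among genes raised in younger LGR birds. Members were also related across the hypothalamus libraries, as NR5A1 was with FST (r = 0.935), so they are not independent. No gene passed the test in this comparison (0% called, and 871 genes, 3 members among them, at an unadjusted p under 0.05), whereas DESeq2 called 21 genes, of which 1 was a member.

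The remaining members, INHBA and NPVF, overlapped between the 3-week growth groups. INHBA was 1.06 to 2.41 CPM in LGR and 1.44 to 2.56 CPM in HGR birds, a log2 fold change of 0.03 (SE 0.31). NPVF varied more among LGR birds than in any other group: it was 867, 23.7, 149 and 626 CPM in LGR and 416, 565, 358 and 229 CPM in HGR birds. The 2 highest and the 2 lowest birds of this comparison were all LGR. LGR over HGR came to 0.10 (SE 0.77) on the log2 scale, and to 0.49 without LGR replicate 2 and -0.56 without LGR replicate 1. The bird with 23.7 CPM of NPVF was the one with 613 CPM of anterior pituitary markers, and their part was not tested.

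At 6 weeks NR5A1 kept groups that did not overlap. It was 16.2, 16.9, 21.8 and 20.9 CPM in LGR and 15.0, 13.5, 10.7 and 7.41 CPM in HGR hypothalamus. By edgeR the difference was 0.71 on the log2 scale (SE 0.20), or 1.63-fold higher in LGR, with an adjusted p of 0.119. DESeq2 called it, at 0.70 with an adjusted p of 0.0215, and the adjusted p ran from 0.0215 to 0.249 over all alternatives. The exact permutation p was 0.0286. NR5A1 was the 1 of 6 members with separate groups, where 11.2% of 14944 genes were separate, and 0 of 6 members were among the 20 genes called (0.134%), a count that was 0 without HGR replicate 3 or 4 or LGR replicate 1, and 1 without LGR replicate 3 or 4. Of the 6 members only NR5A1 had an unadjusted p under 0.05, as did 18.6% of all genes, and DESeq2 called 168 genes.

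FST, NPVF and INHBB overlapped between growth groups at 6 weeks. FST was 10.8 to 20.3 CPM in LGR and 6.69 to 14.5 CPM in HGR birds (log2 fold change 0.45, SE 0.25, adjusted p = 0.37). NPVF was 249 to 451 CPM in LGR and 187 to 374 CPM in HGR birds (0.35, SE 0.24, adjusted p = 0.475). INHBB was 6.17 to 6.96 CPM in LGR and 6.70 to 8.72 CPM in HGR birds (-0.25, SE 0.12, adjusted p = 0.307). Only the lowest INHBB bird of HGR reached into the LGR range. INHBA again differed little, at 1.76 to 2.42 CPM in LGR and 1.73 to 2.59 CPM in HGR birds (-0.08, SE 0.22).

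Markers of neighbouring tissue also moved with the growth groups in the hypothalamus. The sum of 3 thalamus genes (GBX2, TCF7L2 and LHX9), none of them at 0 in any hypothalamus library, was 19.5 to 26.0 CPM in LGR and 47.7 to 191 CPM in HGR birds at 6 weeks, and 22.8 to 89.3 CPM in LGR and 29.4 to 137 CPM in HGR birds at 3 weeks. At 6 weeks 2 of the 3 were called lower in LGR (median log2 fold change -2.36), among the 20 genes called in that comparison. At 3 weeks 0 of the 3 were called (median -0.68). The hypothalamus libraries with the least NR5A1, replicate 4 of HGR at 6 weeks and replicate 4 of HGR at 3 weeks, had the highest thalamus sums, 191 and 137 CPM. Summed levels of the 8 hypothalamic neuron genes were 722 to 863 CPM in LGR and 680 to 803 CPM in HGR birds at 6 weeks. At 3 weeks they were 415 to 807 CPM in LGR and 619 to 789 CPM in HGR birds. Taken singly, 7 of the 8 were higher in LGR at 6 weeks (median log2 fold change 0.41). Of the 8, 5 had an unadjusted edgeR p under 0.05, as did 18.6% of all genes. At 3 weeks 3 were higher and 5 lower in LGR (median -0.16). Such a p was found for 4 of them and for 5.81% of all genes, and 0 of the 8 were called at either age. Markers of other cells moved with the growth groups as well. At 6 weeks the sum of CD3E, PTPRC and LCK, genes of T cells and other white blood cells, was 45.1 to 109 CPM in LGR and 32.8 to 37.7 CPM in HGR birds. The sum of the immediate early genes FOS, EGR1, NR4A1 and ARC was 64.8 to 162 CPM in LGR and 54.6 to 61.3 CPM in HGR birds. At 3 weeks the groups overlapped for each sum. The early genes were at 119 to 129 CPM in LGR and 54.8 to 126 CPM in HGR birds. CD3E, PTPRC and LCK were at 35.1 to 64.6 CPM in LGR and 29.0 to 50.4 CPM in HGR birds. The 4 genes of fibroblasts and capsule were at 545 to 1652 CPM in LGR and 399 to 858 CPM in HGR birds. The 2 oligodendrocyte genes were at 1866 to 4904 CPM in LGR and 3279 to 6428 CPM in HGR birds. The part of these markers in the differences of GnRH-I, NR5A1, FST and INHBB was not tested.

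In the pituitary none of the 5 members tested passed the test between growth groups, and groups overlapped for each of the 5 at both ages, where 2.47% of 14730 genes at 3 weeks and 3.83% of 14826 genes at 6 weeks did not overlap. Neither comparison called any gene (0% at 3 weeks and 0% at 6 weeks; 386 and 1003 genes had an unadjusted p under 0.05), while DESeq2 called 6 and 45 genes, with no member among them. FSHB varied among birds within every group. It was 423, 2103, 596 and 1330.3 CPM in LGR and 1619, 669.8, 2211 and 1198 CPM in HGR birds at 3 weeks. Each group held birds of low and of high level, and the log2 fold change was -0.34 (SE 0.53, adjusted p = 0.963). At 6 weeks FSHB was 477 to 2023 CPM in LGR and 575 to 1934 CPM in HGR birds (-0.19, SE 0.48, adjusted p = 0.958).

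The pituitary levels of NR5A1 and INHBA were steadier. NR5A1 was 131 to 302 CPM in LGR and 216 to 290 CPM in HGR birds at 3 weeks (log2 fold change -0.31, SE 0.26, and -0.19 without the shallow library) and 207 to 402 CPM in LGR and 191 to 329.9 CPM in HGR birds at 6 weeks (0.08, SE 0.23). INHBA was 24.0 to 58.8 CPM in LGR and 29.8 to 33.2 CPM in HGR birds at 3 weeks (0.32, SE 0.25), where the highest value came from the shallow library and the difference without it was 0.06. At 6 weeks INHBA was 28.1 to 46.0 CPM in LGR and 34.5 to 48.2 CPM in HGR birds (-0.12, SE 0.16). INHBB was 0.937 to 2.39 CPM in LGR and 1.22 to 2.75 CPM in HGR birds at 3 weeks (-0.31, SE 0.37) and differed by -0.04 (SE 0.19) at 6 weeks. The 0.937 CPM, from 4 counts, was the shallow library, and without it the lowest LGR value was 1.11 CPM and the 3-week difference -0.19.

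FST was the most variable member of the pituitary. At 3 weeks it was 4.37, 28.1, 22.9 and 121 CPM in LGR and 18.1, 40.1, 14.8 and 25.4 CPM in HGR birds. The LGR group held both the lowest and the highest bird, and the highest was the shallow library. The log2 fold change was 0.82 (SE 0.81, adjusted p = 0.963) with that library and -0.42 without it (adjusted p = 0.948). At 6 weeks FST was 11.2, 13.7, 16.4 and 7.35 CPM in LGR and 12.4, 1.49, 14.6 and 6.77 CPM in HGR birds (0.47, SE 0.54, adjusted p = 0.893). For the pituitary 0 of 15280 genes were called for a growth group difference that changed with age (0%; 685 had an unadjusted p under 0.05), and DESeq2 called 27, with no member among them. Marker sums varied in the pituitary too. That of FOS, EGR1, NR4A1 and ARC was 153 to 1896 CPM. It was 1896 and 935 CPM in the libraries with 1.49 and 4.37 CPM of FST, but 1464 CPM in that with 12.4 CPM. The CD3E, PTPRC and LCK sum was 39.8 to 61.2 CPM in LGR and 60.4 to 185 CPM in HGR birds at 3 weeks. At 6 weeks it was 58.0 to 162 CPM in LGR and 47.2 to 66.3 CPM in HGR birds. The part of these markers in the pituitary differences was not tested.

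**Figure D3:**
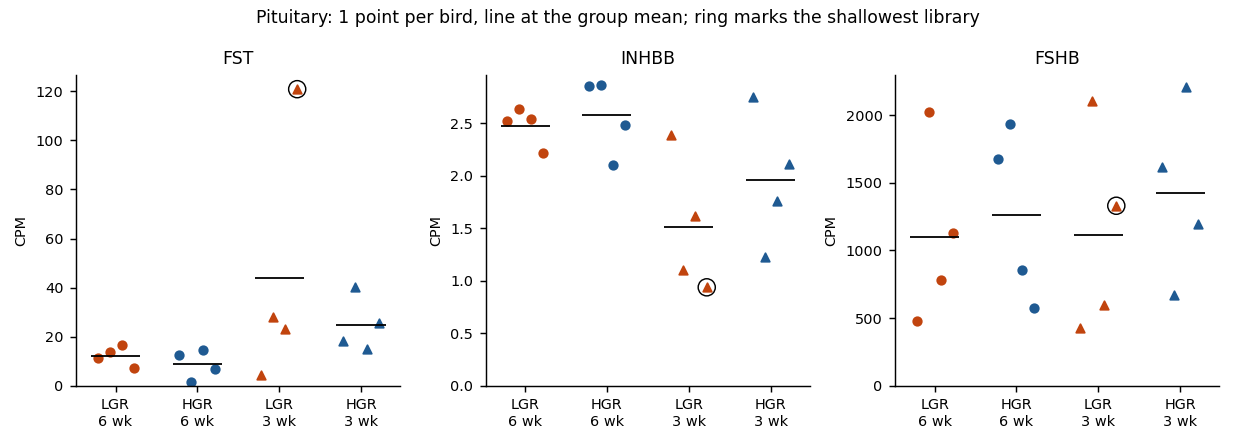
Levels of FST, INHBB and FSHB on the y axis, in CPM, in the pituitary of the 4 groups, with 1 point per bird, a line at each group mean and a ring around the shallowest library. All FST values of 6 weeks are at or below 16.4 CPM, with 6 of the 8 values of 3 weeks above that, and the FSHB ranges of all 4 groups overlap.

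The third question was how the genes changed between 3 and 6 weeks, with the growth groups averaged. In the pituitary FST and INHBB gave the largest differences, in opposite directions, and neither was called. FST was 10.5 ± 4.95 CPM at 6 weeks and 34.3 ± 36.5 CPM at 3 weeks (SD, n = 8 each), or 22.0 ± 11.2 CPM at 3 weeks without the shallow library (n = 7). All 8 birds of 6 weeks, at 1.49 to 16.4 CPM, were below the 3-week mean, but the 3-week birds at 4.37 and 14.8 CPM lay within their range. By edgeR FST differed by -1.65 on the log2 scale (SE 0.54, adjusted p = 0.284), and it was -1.04 with an adjusted p of 0.308 without the shallow library. DESeq2 called it at -1.68 with an adjusted p of 0.0472, and over all alternatives the adjusted p ran from 0.0472 to 0.508. The exact permutation test gave p = 0.0308, and p = 0.0651 without the shallow library. The age difference of FST in pituitary minus that in hypothalamus was -1.16 (SE 0.58, adjusted p = 0.836), and -0.56 without that library (adjusted p = 0.738).

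INHBB in pituitary was 2.53 ± 0.271 CPM at 6 weeks and 1.74 ± 0.644 CPM at 3 weeks. The 6-week birds were tightly grouped at 2.10 to 2.87 CPM, and the 3-week birds spread from 0.937 to 2.75 CPM. The log2 fold change was 0.52 (SE 0.20, adjusted p = 0.393; exact permutation p = 0.00746), and 0.46 without the shallow library (adjusted p = 0.332; exact permutation p = 0.0121). FSHB (-0.10, SE 0.39), NR5A1 (0.16, SE 0.19) and INHBA (0.21, SE 0.15) gave adjusted p-values of 0.92, 0.701 and 0.574. Without the shallow library the log2 fold change was -0.05 for FSHB, 0.09 for NR5A1 and 0.33 for INHBA, with adjusted p-values of 0.975, 0.884 and 0.251. The exact permutation p of INHBA was 0.198 with that library and 0.0235 without it. For FSHB and NR5A1 the exact permutation p without it was 0.940 and 0.698. Of the 5 members tested in pituitary, 0 were called and 2 had an unadjusted p under 0.05, as did 10.6% of all genes. DESeq2 called 1 of the 5, and 164 genes in all. None of the 5 members had ages that did not overlap (0.262% of all genes). Among 15280 genes 4 were called (0.0262%), a count that was 26 without the shallow library and 0 without replicate 3 of HGR at 3 weeks or replicate 1 or 4 of HGR at 6 weeks.

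In the hypothalamus GnRH-I had the largest age difference. It was 4.83 ± 4.59 CPM at 6 weeks and 2.25 ± 2.02 CPM at 3 weeks (SD, n = 8 each). The ranges overlapped, 0.249 to 13.7 CPM at 6 weeks and 0.359 to 5.93 CPM at 3 weeks. By edgeR the difference was 1.60 on the log2 scale (SE 0.62, adjusted p = 0.136), and the exact permutation test on mean log2 CPM gave a difference of 0.86 with p = 0.308. The means differed mostly in LGR birds, at 5.73 CPM at 6 weeks and 0.640 CPM at 3 weeks (n = 4 each). In HGR birds they were 3.93 CPM at 6 weeks and 3.86 CPM at 3 weeks, so a rise shared by both growth groups was not seen.

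The other hypothalamic members shifted by less. FST was 13.3 ± 4.01 CPM at 6 weeks and 19.1 ± 7.33 CPM at 3 weeks (-0.47, SE 0.19, adjusted p = 0.142), and NR5A1 was 15.3 ± 4.83 CPM at 6 weeks and 19.8 ± 5.87 CPM at 3 weeks (-0.38, SE 0.16, adjusted p = 0.167). Over all alternatives the adjusted p ran from 0.0431 to 0.290 for FST and from 0.0398 to 0.327 for NR5A1. Both were lowest without replicate 4 of HGR at 3 weeks, and neither gene reached a 1.5-fold change in any fit. INHBB was 7.04 ± 0.894 CPM at 6 weeks and 5.99 ± 0.783 CPM at 3 weeks (0.24, SE 0.09, adjusted p = 0.117; exact permutation p = 0.0214). All 8 birds of 6 weeks were above the 3-week mean of INHBB. NPVF was 331.5 ± 94.0 CPM at 6 weeks and 404 ± 276 CPM at 3 weeks (-0.29, SE 0.46, adjusted p = 0.728). Its difference of mean log2 CPM had the opposite sign, 0.19 (exact permutation p = 0.827). INHBA was 2.10 ± 0.370 CPM at 6 weeks and 1.92 ± 0.503 CPM at 3 weeks (0.13, SE 0.19, adjusted p = 0.693). Of the 6 members tested, 0 were called and 4 had an unadjusted p under 0.05, as did 24.2% of all genes. DESeq2 called none of the 6, and none of them had ages that did not overlap, as 0.324% of genes did. Among 15414 genes 96 were called (0.623%), and 27 to 354 with 1 library left out, the most without replicate 4 of HGR at 3 weeks and the fewest without replicate 4 of HGR at 6 weeks. Marker sums also moved with age: 2 red blood cell genes summed to 53.5 to 156 CPM at 6 weeks and 191 to 692 CPM at 3 weeks in the hypothalamus. These 2 genes were called lower at 6 weeks (median log2 fold change -2.14). The 6 anterior pituitary genes summed to 2.39 to 331 CPM at 6 weeks and 12.4 to 613 CPM at 3 weeks, and all 6 had a negative log2 fold change (median -1.72, 0 called). The 4 genes of fibroblasts and capsule summed to 219 to 835 CPM at 6 weeks and 399 to 1652 CPM at 3 weeks (median -0.87, 0 called). The 3 astrocyte genes summed to 2133 to 2533 CPM at 6 weeks and 1442 to 2350.5 CPM at 3 weeks, with 1 of them, the glutamate transporter SLC1A2, called higher at 6 weeks (0.79). The part of these markers in the age differences of the members, GnRH-I included, was not tested.

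**Figure D4:**
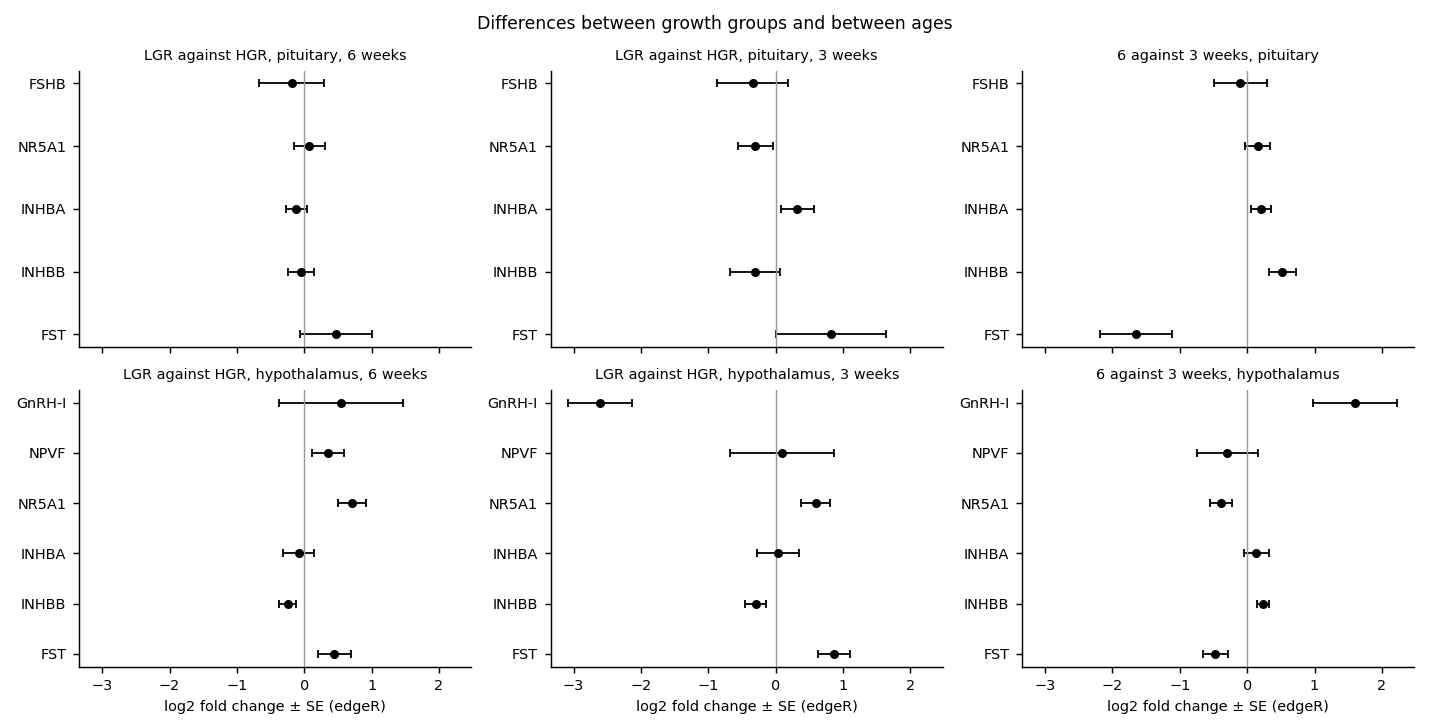
Log2 fold change (x axis) with its standard error from edgeR for each member tested, for LGR against HGR at 6 and 3 weeks and for 6 against 3 weeks, in pituitary (top) and hypothalamus (bottom). The largest differences are GnRH-I in the hypothalamus at 3 weeks (-2.60), FST between ages in the pituitary (-1.65) and GnRH-I between ages in the hypothalamus (1.60), and none was called.

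Across the 16 hypothalamus libraries the levels of NR5A1 and FST were closely related. Pearson's r of their log2 CPM was 0.935 and Spearman's rho 0.944, each with a permutation p of 1e-05, the smallest that 100000 permutations can give, and 0.00025 after adjustment over the 25 pairs of members compared in both tissues. Without the 2 libraries farthest from the median of NR5A1, r was 0.868. It was 0.915 within the 6-week and 0.950 within the 3-week libraries, and 0.927 after the mean of each group was subtracted. The relation was not particular to this pair, since FST was closer still to NKX2-1 (r = 0.963) and POMC (0.952). The hypothalamus libraries lowest in both NR5A1 and FST, replicate 4 of HGR at 6 and at 3 weeks, had the highest thalamus sums, 191 and 137 CPM. The part of tissue make-up in the relation was not tested. In the pituitary NR5A1 and FST gave r = -0.403 (permutation p = 0.12, adjusted 0.333) and rho = -0.144 (permutation p = 0.595, adjusted 0.755), and r was -0.195 without the shallow library.

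**Figure D5:**
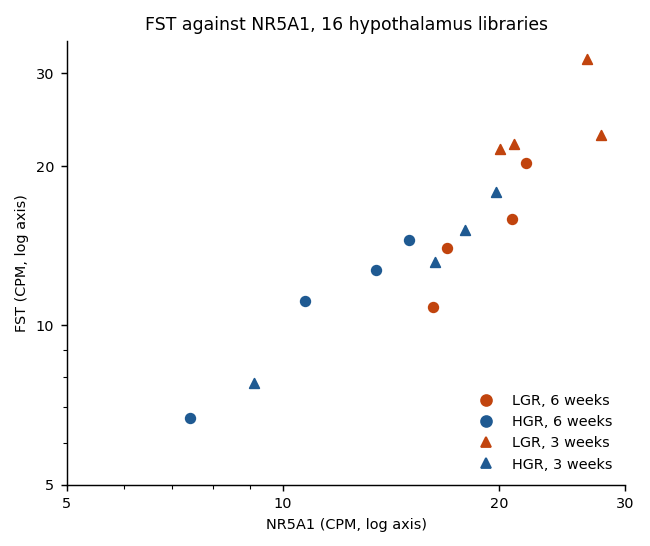
Levels in the 16 hypothalamus libraries in CPM on log axes, with 1 point per library: FST (y axis) against NR5A1 (x axis), with colour for the growth group and shape for the age. FST follows NR5A1 across the libraries of all 4 groups (r = 0.935).

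The only other pair past an adjusted p of 0.05 by both measures was INHBB with FST in the pituitary. Pearson's r was -0.751 (permutation p = 0.00043, adjusted 0.00537) and Spearman's rho -0.674 (permutation p = 0.00554, adjusted 0.0303) over the 16 libraries. It was -0.596 without the 2 libraries farthest from the INHBB median, -0.764 within 3 weeks, -0.375 within 6 weeks and -0.685 with group means removed. The shallow library had both the most FST and the least INHBB, and without it r was -0.623 and rho -0.604. In the hypothalamus INHBB and NR5A1 were inversely related by rank (rho = -0.782, permutation p = 0.00058, adjusted 0.00725; r = -0.616, permutation p = 0.0114, adjusted 0.057). Here r was -0.569 without the 2 farthest libraries, -0.529 within 6 weeks and -0.532 within 3 weeks, but 0.0865 with group means removed, so the relation did not hold within groups. INHBB with FST in the hypothalamus did the same, with rho = -0.759 (permutation p = 0.00105, adjusted 0.00875), r = -0.639 (permutation p = 0.00813, adjusted 0.0565) and an r of 0.000827 with group means removed (-0.813 without the 2 farthest libraries, -0.424 within 6 weeks and -0.618 within 3 weeks). FSHB and NR5A1 in the pituitary gave rho = 0.665 (permutation p = 0.00618, adjusted 0.0303) and r = 0.540 (permutation p = 0.0295, adjusted 0.123), with r = 0.666 without the 2 farthest libraries, 0.724 within 6 weeks, 0.448 within 3 weeks and 0.538 with group means removed. Without the shallow library this pair gave r = 0.659 and rho = 0.743. That library also moved other pituitary pairs, those of INHBA. With it r of INHBA was 0.265 with NR5A1, -0.0397 with INHBB and 0.138 with FST (adjusted permutation p 0.664, 0.888 and 0.855). Without it r was 0.668, 0.395 and -0.264, and these values were not tested. GnRH-I and FST in the hypothalamus gave rho = -0.653 (permutation p = 0.00727, adjusted 0.0303) and r = -0.628 (permutation p = 0.00904, adjusted 0.0565), with r = -0.624 without the 2 farthest libraries, -0.550 within 6 weeks, -0.661 within 3 weeks and -0.532 with group means removed.

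The genes whose log2 CPM was most like that of each member were taken from all genes with a symbol in the same tissue, as a description with no test. Of 10006 genes compared over the 16 hypothalamus libraries, FST was most like NKX2-1 (r = 0.963), POMC (0.952) and CHRNA3 (0.944). NR5A1 was most like FST itself (0.935), BSX (0.933) and NKX2-1 (0.922). With group means removed these 6 values were 0.859 to 0.939. GnRH-I was most like EOMES (0.830) and TSHZ1 (0.807), with 0.736 and 0.685 after group means were removed.

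NPVF followed other neuropeptide genes, HCRT (r = 0.925) and TRH (0.845), and then C9orf72 (0.818), and kept 0.858 to 0.920 with group means removed. Spearman's rho was lower, 0.862 for HCRT, 0.612 for TRH and 0.665 for C9orf72. The bird with 23.7 CPM of NPVF was included, and its part in these values was not tested. INHBB was nearest to GPR180 (0.888), SH3BGRL2 (0.846) and SLC36A4 (0.843), and these dropped to 0.607 to 0.689 with group means removed. INHBA had RAD51AP1 (0.727) and PGAP3 (0.716) among its nearest genes. In the pituitary, among 9899 genes, FSHB was most like THOP1 (0.820), TRAPPC12 (0.807) and VLDLR (0.801), and NR5A1 like GNPTAB (0.823), HS3ST4 (0.809) and SLC7A6 (0.8002). INHBA was most like LAMP1 (0.881), RCN2 (0.861) and P2RX4 (0.856). INHBB was most like YTHDF2 (0.862), ST3GAL4 (0.853) and BCLAF1 (0.839), and FST like SPTLC3 (0.852), NRBF2 (0.839) and MXI1 (0.826). With group means removed, r of these pituitary genes was 0.678 (BCLAF1) to 0.923 (THOP1). Spearman's rho was 0.594 for BCLAF1 and 0.776 (MXI1) to 0.879 (LAMP1) for the others. The shallow library, with the most FST and the least INHBB, was included, and its part in these values was not tested.

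Other genes of the axis were followed as 7 lists, of which 46 genes could be tested between the tissues. In the fits between ages 44 genes passed the low-count filter in hypothalamus and 43 in pituitary. A gene that passed through 1 tissue only had to differ between tissues, and its call is not used as support. In hypothalamus 7 of the 8 gonadotropin subunit and gonadotroph factor genes passed. In pituitary 6 of the 7 ventromedial genes and 6 of the 7 activin receptors and signal carriers passed. Of the 9 antagonists 8 passed in each tissue. At 3 weeks 20 of the 46 were called higher and 15 lower in pituitary, and at 6 weeks 22 and 16, beside the 51.6% and 53.2% of all genes given above. These counts and shares include genes that passed through 1 tissue only, and fold changes named below may be of such genes. The median log2 fold change of the 46 was 0.08 at 3 weeks and 0.28 at 6 weeks, against 0.06 and 0.04 over all genes. All 8 gonadotropin subunit and gonadotroph factor genes found were higher in pituitary, led at 6 weeks by PITX1 (log2 fold change 9.35), CGA (8.77), the alpha subunit that pairs with FSHB, LHX3 (8.13) and FOXL2 (3.71). All 5 genes of GnRH and gonadotropin-inhibitory hormone signalling found were lower in pituitary at both ages, among them NPFFR1, a receptor of the NPVF peptide (-5.33 at 6 weeks), tac1 (-6.91), PDYN (-3.19) and TACR3 (-2.93). GNRHR, LHB and INHA were among the genes sought under these symbols that were not matched and are not analysed here.

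Of the activin receptors and signal carriers, 1 of 7 was called higher and 1 lower in pituitary at 3 weeks, and 2 and 1 at 6 weeks. SMAD3, which carries the activin signal to the nucleus, was higher in pituitary (3.11, SE 0.20 at 3 weeks), ACVR1C was lower (-2.64, SE 0.34), and SMAD4 was called at 6 weeks only (0.76, SE 0.14). The antagonists split in the same way: 4 of 9 were called higher and 3 lower at each age. FSTL3, a relative of FST, was higher in pituitary at 6 weeks (1.89, SE 0.33), while the BMP antagonists GREM1 (-5.01, SE 0.52) and NOG (-2.70, SE 0.20) were lower. Among related ligands BMP4 (1.73, SE 0.19), BMP7 (0.79, SE 0.15) and MSTN (1.21, SE 0.25) were higher in pituitary at 3 weeks and 2 of the 5 were not called.

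Of the 5 steroid and gonadotropin receptors, 4 were called higher in pituitary at 3 weeks, among them the oestrogen receptor ESR1 (3.53) and FSHR (1.75), the receptor of the hormone that FSHB helps to form. The other oestrogen receptor, ESR2, was lower (-4.86). Of the 7 ventromedial hypothalamus genes listed beside NR5A1, 5 were lower in pituitary at 3 weeks, led by SOX14 (-8.54), FEZF1 (-4.36), NKX2-1 (-4.26) and NR2F2 (-1.32), opposite to the direction of NR5A1 itself. The median log2 fold change at 3 weeks was 3.15 over the gonadotroph list, -2.77 over the GnRH signalling list, -0.11 over the activin receptors and carriers, 0.79 over the ligands, 0.12 over the antagonists, 1.75 over the receptors and -1.32 over the ventromedial genes.

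Between growth groups and between ages no gene of these lists was called by edgeR in either tissue. DESeq2 called 1 of 44 in the hypothalamus between ages, BMP4 (-0.63, adjusted p = 0.0342), and 1 of 42 between growth groups at 6 weeks, ESR2 (0.59, adjusted p = 0.00961), both named after their values were seen. In the hypothalamus at 6 weeks the median log2 fold change of LGR over HGR was 0.14 over the 42 axis genes tested, with 16 at an unadjusted p under 0.05, and 0.01 over all genes, of which 2775 of 14944 (18.6%) had such a p. At 3 weeks it was 0.09 over 44 genes, with 4 at an unadjusted p under 0.05, where 5.81% of all genes had such a p. The 7 gonadotroph genes tested there were all positive, with a median of 0.60, beside the higher anterior pituitary sums of those LGR libraries given above. CGA, LHX3 and PITX1 are part of both this list and those sums, so the sets are not independent. EGR1 is in this list and also among the immediate early genes. In the pituitary the medians were -0.16 over 40 genes at 6 weeks, with 3 at an unadjusted p under 0.05, and -0.02 over 39 genes at 3 weeks, with 0. Over all pituitary genes the share was 6.77% at 6 weeks and 2.62% at 3 weeks. Between ages 10 of 44 genes in hypothalamus and 7 of 43 in pituitary had such a p, where 24.2% and 10.6% of all genes did.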

How the data were processed

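Total RNA of hypothalamus and pituitary was made into libraries that keep no strand and read as single ends. Per the methods and the processing notes, the authors checked and trimmed reads with FastQC, Flexbar and CASAVA 1.8.2, aligned and counted them with RSEM on the Ensembl chicken reference (the notes also name Bowtie2), and deposited whole-number counts per gene, not normalized. The start and end positions (unit: other) and gene symbols were copied from the authors' deposited result tables, which also hold their own DESeq2 comparison, not used here. A symbol was given for 10132 genes.

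The counts were fitted with edgeR 4.0.16 (TMM, filterByExpr with a minimum count of 10, quasi-likelihood test) under R 4.3.3. Growth groups were fitted within a tissue and age (8 libraries), ages within a tissue (16) and tissues over 32 libraries. All 32 libraries were used. The paper left out some hypothalamus libraries of both ages that stood apart in its clustering. Its text does not name them, so they are included here. Calls required a 1.5-fold change and 0.05 after Benjamini-Hochberg adjustment over all genes tested. The replicate is the bird; the p-values measure the spread between birds. The 33 exact permutation tests of member levels are two-sided and unadjusted, and 8 gave p of at most 0.05; correlations used 100000 permutations (Python 3.11.15). Every member was named; listed genes were named where called, at most 4 per list and comparison; the 3 genes most alike in log2 CPM were named per member, by Pearson's r; some genes these rules select, and a marker that moved with GnRH-I in the hypothalamus, are not reported here. Alternatives were DESeq2 1.42.0, other scaling, no filter, blocks, a fit over 16 libraries and leaving out each library. The code was tested on simulated data. The members and lists were chosen with earlier results of these data known. No library pair of a group agreed within sampling noise (chi-square per gene at least 8.14). Same-bird tissues deviated together in all 16 birds (correlation 0.109 to 0.48, mean 0.264). Tissues of different birds of a group gave -0.369 to 0.206 (48 pairs, mean -0.0861), so the ranges overlapped. The labels give both tissues of a bird the same number. The main fit over 32 libraries did not use this pairing, while the bird block did.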

Additional observations from a re-analysis of the deposited data

Results flagged for a closer look

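Of 44 groups of 4 libraries, 5 held a library whose gap to its neighbour, as a part of the group's range on the log2 CPM scale, passed Dixon's critical value for 4, where chance alone gives about 1 in 20 groups. Of these, 4 were in the hypothalamus of 3-week LGR birds: FST was highest in replicate 2 at 31.99 CPM, GnRH-I was highest in replicate 1 at 1.39 CPM, INHBA was lowest in replicate 3 at 1.06 CPM and INHBB was lowest in replicate 4 at 4.54 CPM. Each of these values came from another bird. The remaining one was NR5A1 in the pituitary of 6-week LGR birds, highest in replicate 2 at 402 CPM. No member passed the test for a difference that changed with age or tissue.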

How the results depend on the processing

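Under the alternatives that left no library out, 1 of the values fitted for members changed sign: NPVF between growth groups in the 3-week hypothalamus, at -0.56 with a replicate block. Beside the 4 changed calls given in the text, no call of a member changed there, the bird block between tissues included. Same-numbered replicates of different groups correlated between -0.189 and 0.162 (growth groups, mean -0.0116) and between -0.0913 and 0.266 (ages, mean 0.0625). They are different birds that share a replicate number. With that replicate block the count of calls was 1 for age in pituitary, 3 for growth in the 6-week hypothalamus and 0 for growth by age in hypothalamus, and with the bird as a replicate block it was 2 for tissue by age.

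DESeq2 called 6, 45, 21 and 168 genes between growth groups (pituitary 3 and 6 weeks, hypothalamus 3 and 6 weeks), 164 and 199 between ages (pituitary, hypothalamus), 27 and 23 for growth by age and 37 for tissue by age. RLE and upper-quartile scaling gave 5 each for tissue by age. Without the low-count filter 63 were called between ages and 2 for growth by age in hypothalamus. A fit over 16 libraries called 4 and 0 genes between growth groups in the 3- and 6-week hypothalamus.

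With 1 library left out, the counts were 0 to 1 (growth, pituitary 3 weeks), 0 to 1 (pituitary 6 weeks), 0 to 1 (hypothalamus 3 weeks), 0 to 24 (hypothalamus 6 weeks), 0 to 26 (age, pituitary), 27 to 354 (age, hypothalamus), 0 to 2 and 0 to 8 (growth by age, pituitary and hypothalamus) and 0 to 20 (tissue by age). Of 62 member values, 17 changed sign in at least 1 such fit, and none of these 17 had been called. Between growth groups in pituitary, FSHB at 6 weeks ran from -0.65 to 0.0911, NR5A1 at 6 weeks from -0.19 to 0.23, INHBA at 6 weeks from -0.21 to 0.0067, INHBB at 6 weeks from -0.13 to 0.0106 and FST at 3 weeks from -0.42 to 1.21. In hypothalamus, GnRH-I at 6 weeks ran from -0.35 to 1.12, INHBA at 3 weeks from -0.0845 to 0.24 and at 6 weeks from -0.18 to 0.0092, and NPVF at 3 weeks from -0.56 to 0.49. Between ages, FSHB in pituitary ran from -0.33 to 0.15 and NPVF in hypothalamus from -0.49 to 0.0237. For growth by age, FSHB ran from -0.30 to 0.65 and FST from -0.73 to 0.90 in pituitary, and INHBB from -0.0314 to 0.11, NPVF from -0.14 to 0.90 and NR5A1 from -0.0620 to 0.30 in hypothalamus; INHBA for tissue by age ran from -0.0120 to 0.20. The causes were not tested.

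Depth limits GnRH-I, with 4 to 218 counts per hypothalamus library, INHBA in hypothalamus, with 16 to 41 counts, and INHBB in pituitary, with 4 to 48 counts.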
